A study of Mus musculus with 21 samples.

Results

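The 7 genes described here make and load MHC class II molecules: H2-Aa, H2-Ab1, H2-Eb1, H2-DMa, H2-DMb1, Cd74 and Ciita. They were found by their symbols among the 24391 genes of the count tables, and all 7 were listed in each of the 21 libraries. The libraries came from brain, liver and skin of newborn mice on the day of birth, labelled C57BL/6 (C57BL/6J in the study's methods), with 1 library for each mouse and tissue. The 2 Jak1 KI mice, labelled Jak1 KI +/-, were heterozygous for a knock-in allele of Jak1 that turns a histidine of the JAK1 kinase into aspartic acid and holds silent changes in the neighbouring isoleucine and tyrosine codons. The 5 WT mice carried no such allele. According to the study's methods, heterozygous KI mice descended from a mosaic male founder made by CRISPR-Cas9 editing of zygotes, bred to WT mice. Sexes, litters and treatments are not named in the labels, and p-values measure the spread between these mice only.

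MHC class II molecules carry peptides from ingested proteins to the surface of dendritic cells, macrophages and B cells, where CD4+ T cells read them. An alpha and a beta chain (H2-Aa with H2-Ab1 for I-A, H2-Eb1 for the beta chain of I-E) pair around the invariant chain, encoded by Cd74, which keeps the groove closed until it is cut away by lysosomal proteases. H2-DM, made of H2-DMa and H2-DMb1, then releases the last fragment of the invariant chain and edits the peptide. Ciita encodes the coactivator that switches these genes on together, and interferon gamma, which signals through JAK1 and JAK2, is its best known inducer outside professional antigen-presenting cells.

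Depth ranged from 26549326 to 38388133 counts on genes per library, so that 3 counts correspond to between 0.0781 and 0.113 CPM, a count scaled by the total counts on genes of its library. Values are given in CPM, fold changes come from edgeR with TMM normalization, fitted within a tissue for KI against WT and across tissues for the other comparisons, and a gene was called at an adjusted p under 0.1. Summed tissue markers separated the tissues: 7 brain markers reached 7277 to 8530 CPM in the brain libraries and at most 84.8 elsewhere, 7 liver markers reached 193077 to 220099 CPM in the liver and at most 2744 elsewhere, and 7 skin markers reached 23784 to 40953 CPM in the skin and at most 367 elsewhere. Jak1 ranged from 108 to 189 CPM in the brain, 142 to 212 in the liver and 170 to 209 in the skin, and it was called in none of them. A coding substitution need not alter this level, so Jak1 does not check the genotype labels. In the brain, WT 5 stood apart: 0 genes of 16322 were called with all 7 libraries and 1698 without it. The skin RNA was less intact than the liver RNA, according to the study's methods.

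Class II genes share a promoter layout in which an X box lies upstream of a Y box, the Y box being a reversed CCAAT motif. RefSeq promoters of GRCm38.p6, from 250 bases before to 50 after a start, were found for 4 of the 7 members (H2-Aa, H2-Eb1, H2-DMa and H2-DMb1). The following windows of 130 bases, from H2-Aa and H2-Eb1, which were called in the KI liver, and from H2-Ob, the chain of the H2-DM inhibitor H2-O, are shown for that layout. Capitals mark CCAAT on either strand (CCAAT or ATTGG) and the X box letters AGCAAC.
H2-Aa, chr17:34424769-34424898, minus strand: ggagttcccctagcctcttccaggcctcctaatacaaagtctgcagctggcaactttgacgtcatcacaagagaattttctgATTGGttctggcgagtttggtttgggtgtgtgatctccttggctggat
H2-Eb1, chr17:34442682-34442811, plus strand: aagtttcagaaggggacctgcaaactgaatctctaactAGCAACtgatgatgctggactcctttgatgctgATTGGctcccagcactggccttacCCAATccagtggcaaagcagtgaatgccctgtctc
H2-Ob, chr17:34375720-34375849, plus strand: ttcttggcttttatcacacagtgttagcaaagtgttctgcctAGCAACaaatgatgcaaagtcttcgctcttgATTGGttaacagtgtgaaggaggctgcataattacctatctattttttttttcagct

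The coordinates are those of exact matches in NCBIM37 (mm9), the build of the counts. The CCAAT motif lay 48 bases upstream of the RefSeq start in H2-Aa, 59 and 35 bases in H2-Eb1, 61 bases in H2-DMb1 and 57 bases in H2-Ob. For H2-DMa 2 promoters were found, and the motif lay 198 bases upstream in 1 of them and was not in the other. AGCAAC lay 92 bases upstream in H2-Eb1 and 88 bases upstream in H2-Ob, and these letters were not in the H2-Aa, H2-DMa and H2-DMb1 windows. Of the 9 class II promoters in the table, from 8 of 12 genes looked up, 8 held CCAAT, against 37.4% of all 32851 promoters, and 4 held AGCAAC together with CCAAT, against 5.84%. The STAT motif, TTC and GAA with any 3 bases between them, was in 1 of the 9 (H2-DMb2) and in 8.30% of all promoters. The interferon-stimulated element, GAAA repeated with any 2 bases between, was in 0 of the 9 and in 3.44% of all. Both strands were searched for each motif.

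In the GENCODE annotation of NCBIM37, the 5 H2 genes lie on chromosome 17, Cd74 on chromosome 18 and Ciita on chromosome 16. H2-Aa (minus strand, 34406276 to 34424772) and H2-Ab1 (plus strand, 34400154 to 34406363) overlap at their 3′ ends by 88 bases, and the library kit does not mark strand. H2-Eb1 (34442828 to 34453144), H2-DMa (34272127 to 34276046) and H2-DMb1 (34290017 to 34297168) are on the plus strand of chromosome 17, and Ciita spans 10480237 to 10527657 on the plus strand of chromosome 16. H2-DMb1 and its near copy H2-DMb2 lie 1518 bases apart, so reads may be split between them and their counts are uncertain. H2-Ea, the alpha partner of H2-Eb1, is disrupted in C57BL/6 mice and is listed as H2-Ea-ps, with 0 counts in all 21 libraries.

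In WT newborns the chains and Cd74 were far lower in the brain than in liver and skin, H2-DMa was the exception with its highest level in the brain, and Ciita was low in all 3 tissues. Of the 7 members, 5 were called lower in WT brain than in WT liver and 1 higher. The same counts, 5 lower and 1 higher, came from WT brain against WT skin. Of all 17071 genes tested, 40.2% were called lower and 43.3% higher in the brain than in the liver, and 40.3% lower and 39.1% higher in the brain than in the skin, so the counts of members stand against a background in which most genes differ between tissues.

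**Figure D1:**
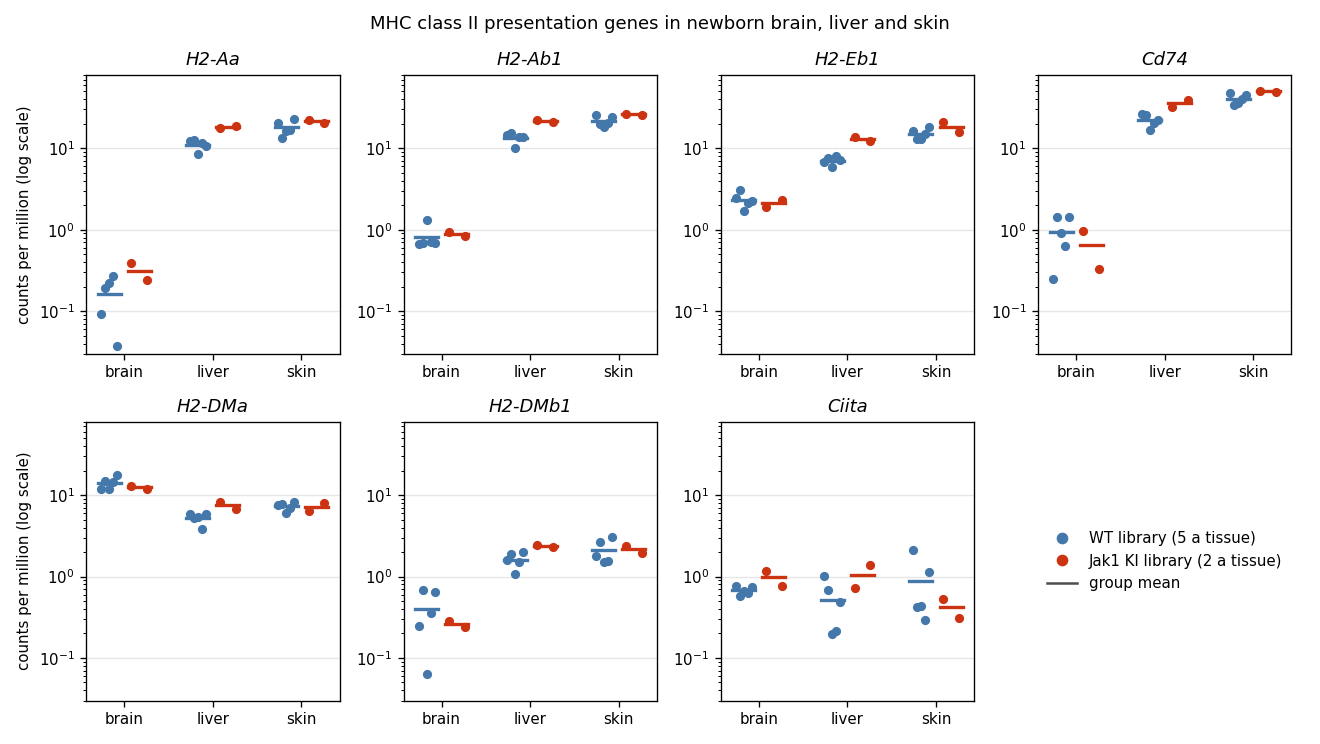
CPM (log scale) of the 7 members in every library, by tissue, with WT libraries in blue, Jak1 KI libraries in red and group means as short lines. In the liver both KI libraries lie above all WT libraries for 6 of the 7 genes, and in the brain H2-DMa lies between 11.8 and 17.9 CPM while H2-Aa stays at or under 0.393 CPM.

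H2-Aa, the alpha chain of I-A, was counted at 0.0921, 0.194, 0.222, 0.268 and 0.0377 CPM in WT brains 1 to 5. These are 1 to 9 reads, at or near the limit of 3 counts. In WT livers it was at 12.1, 12.5, 8.54, 11.7 and 10.6 CPM, and in WT skin at 20.7, 13.5, 16.2, 16.9 and 23.0 CPM. The brain values lay below every liver and skin value. The level in liver was 113-fold that in brain by edgeR (log2 fold change of brain over liver -6.82, SE 0.336, adjusted p = 2.09e-11). This fold includes the TMM scaling and is larger than the ratio of the CPM values. The TMM factors were 0.687 to 0.754 in the WT livers and 1.19 to 1.26 in the WT brains.

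H2-Ab1, the beta chain of I-A, was at 0.676 to 1.33 CPM in WT brain, 9.998 to 15.4 CPM in WT liver and 18.1 to 25.7 CPM in WT skin. Its log2 fold change of brain over liver was -4.83 (SE 0.229, adjusted p = 1.31e-11). H2-Eb1, the beta chain of I-E, showed the smallest gap of the 3 chains: 1.72 to 3.07 CPM in WT brain, 5.91 to 7.97 in WT liver and 13.0 to 18.2 in WT skin, with a log2 fold change of brain over liver of -2.39 (SE 0.194, adjusted p = 9.61e-09). The brain therefore held more H2-Eb1 than H2-Ab1 reads per length. Per kilobase, the ratio of H2-Eb1 to H2-Ab1 was 1.78 to 6.25 in the 7 brain libraries, KI included, 0.651 to 0.847 in the 7 liver libraries and 0.851 to 1.09 in the 7 skin libraries. The brain and the other tissues did not overlap in this ratio. In the same libraries the ratio of H2-Aa to H2-Ab1 per kilobase was 0.0460 to 0.351 in the brain, on few reads, and 0.568 to 0.786 in liver and skin.

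Cd74, the invariant chain, was at 0.246 to 1.43 CPM in WT brain, 16.6 to 26.5 in WT liver and 33.8 to 48.2 in WT skin. Its log2 fold change was -5.38 (SE 0.353) for brain over liver and -5.54 (SE 0.355) for brain over skin, with adjusted p = 6.77e-10 and 9.61e-10. H2-DMb1, the beta chain of the peptide editor, was at 0.0636 to 0.679 CPM in WT brain, 1.06 to 2.02 in WT liver and 1.52 to 3.04 in WT skin, and was also called lower in brain (-2.80 and -2.46).

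H2-DMa, the alpha chain of the same editor, went the other way, at 11.8, 14.7, 12.01, 14.5 and 17.9 CPM in WT brains 1 to 5, 3.78 to 5.90 CPM in WT livers and 5.99 to 8.35 CPM in WT skin. All 5 brain values lay above all liver and skin values. The log2 fold change was 0.66 (SE 0.176, adjusted p = 0.00287) for brain over liver and 0.87 (SE 0.176, adjusted p = 0.000313) for brain over skin. Its partner H2-DMb1 was lower in the brain, so the subunits of H2-DM were counted at unlike levels there: 8.64 ± 1.51 CPM per kilobase for H2-DMa and 0.269 ± 0.177 for H2-DMb1 (SD, n = 5). Brd2, a neighbour 12864 bases away on the opposite strand, was also highest in the brain (299 to 428 CPM, against 130 to 175 in liver and 243 to 290 in skin), and its part in the H2-DMa value was not tested.

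Ciita was counted at 0.582 to 0.768 CPM in WT brain, 0.199 to 1.02 in WT liver and 0.289 to 2.11 in WT skin. Its groups overlapped in all 3 tissues and it was called in none of the tissue comparisons (adjusted p between 0.460 and 0.944). The highest skin value, 2.11 CPM in WT 1, rested on 64 reads, and WT 5 followed with 33 reads.

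**Figure D2:**
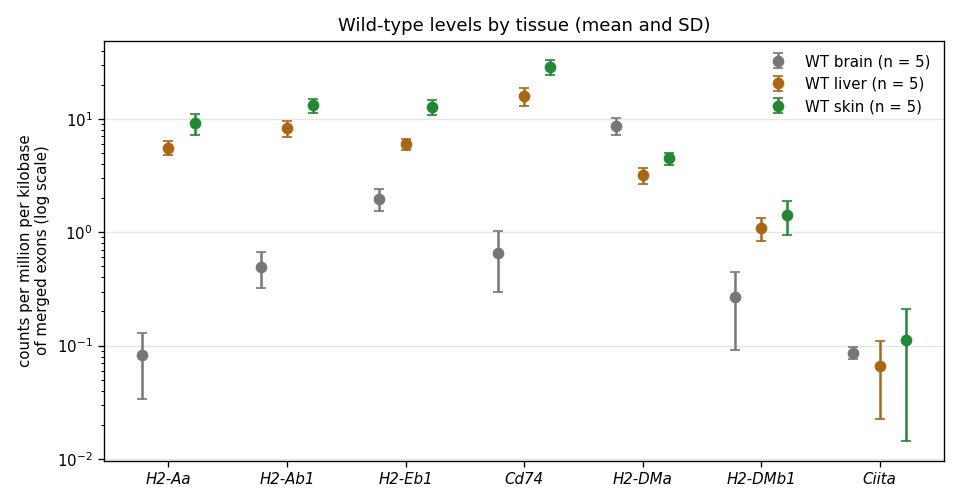
Mean WT levels of the 7 members in CPM per kilobase of merged exons (log scale) by tissue, with SD bars over 5 libraries, cut at the lower end where the SD nears the mean. Cd74 leads in liver (15.9) and skin (28.8) and H2-DMa leads in brain (8.64).

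Per kilobase of merged exons, the order in WT skin was Cd74 (28.8 ± 4.37), H2-Ab1 (13.1 ± 1.96), H2-Eb1 (12.7 ± 1.87), H2-Aa (9.09 ± 1.89), H2-DMa (4.48 ± 0.548), H2-DMb1 (1.42 ± 0.471) and Ciita (0.112 ± 0.0982), in CPM per kilobase with SD over 5 mice. H2-Ab1 and H2-Eb1 were neighbours that did not differ beyond their spread. WT liver had the same order, from Cd74 (15.9 ± 2.87) to Ciita (0.0667 ± 0.0440), with H2-Eb1 (5.94 ± 0.653) and H2-Aa (5.58 ± 0.801) closer than their spread. The place of H2-Aa depends on the length used: with the longest transcript in place of merged exons H2-Aa stood at 9.80 in WT liver and 15.96 in WT skin, above H2-Eb1 (5.99 and 12.8). In the brain, H2-DMa led, followed by H2-Eb1 (1.96 ± 0.420). Cd74, H2-Ab1 and H2-DMb1 lay between 0.269 and 0.659 and did not differ from each other beyond the spread. Ciita and H2-Aa came last.

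Liver and skin were not separated for most members. Only H2-Eb1 was called, lower in the WT liver than in the WT skin (log2 fold change -0.39, SE 0.183, adjusted p = 0.0706), against 39.8% of all genes called lower in the liver, and it was not called without WT 1, WT 3 or WT 5 (adjusted p = 0.232, 0.125 and 0.156). The other 6 had log2 fold changes between -0.16 and 0.34. This comparison turns on the scaling, since the TMM factors were 0.687 to 0.754 in the liver libraries and 1.11 to 1.27 in the skin libraries. With library totals in place of TMM, 5 of the 7 members were called lower in the liver (H2-Aa -0.70, H2-Ab1 -0.67, H2-DMa -0.49, Cd74 -0.86 and H2-Eb1), while the median log2 fold change of all genes moved from -0.10 to -0.81 and the share of calls that were higher in the liver moved from 45.0% to 20.6%. The same change of scaling moved the median of brain over liver from 0.06 to 0.85 and the share of calls higher in the brain from 51.9% to 69.3%; the brain remained lower than the liver for the 3 chains, Cd74 and H2-DMb1 under both.

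In the KI liver 4 of the 7 members were called higher, the chains H2-Aa, H2-Ab1 and H2-Eb1 and the invariant chain Cd74, by 1.57- to 1.83-fold, and 0 were called lower. In the liver 3.89% of all 14966 genes tested were called higher, 1.68% lower and 5.57% were called in either direction. Every member was estimated above 0 on the log2 scale, and their median was 0.67 against -0.02 over all genes. Both KI libraries lay above all 5 WT libraries for 6 of the 7, against 13.8% of all genes.

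H2-Eb1 had the largest change among the called members, with 13.8 and 12.3 CPM in the KI livers and 6.81, 7.50, 5.91, 7.97 and 7.12 CPM in WT livers 1 to 5. The groups did not overlap and the fold was 1.83 (95% interval 1.45 to 2.30, adjusted p = 0.0194). H2-Aa was at 17.7 and 18.6 CPM in the KI livers and 8.54 to 12.5 CPM in the WT livers, 1.62-fold higher (log2 fold change 0.70, SE 0.142, adjusted p = 0.0379). H2-Ab1 was at 22.5 and 21.03 CPM in the KI livers and 14.5, 15.4, 9.998, 13.9 and 13.8 CPM in the WT livers, 1.59-fold higher (interval 1.26 to 2.02, adjusted p = 0.0525). The ratio of H2-Aa to H2-Ab1 per kilobase was 0.652 and 0.731 in KI and 0.637 to 0.706 in WT livers, 1 KI liver above that range.

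Cd74 was at 32.2 and 38.9 CPM in the KI livers and 26.5, 25.9, 16.6, 20.7 and 22.5 CPM in the WT livers, 1.57-fold higher (interval 1.23 to 2.01, adjusted p = 0.0679). Both KI values lay above the highest WT value. H2-DMa, at 8.30 and 6.79 CPM in KI and 3.78 to 5.90 CPM in WT livers, also did not overlap between groups, but its difference was not called (log2 fold change 0.52, SE 0.203, adjusted p = 0.228). H2-DMb1, at 2.46 and 2.31 CPM in KI and 1.06 to 2.02 CPM in WT livers, had a log2 fold change of 0.54 (SE 0.294, adjusted p = 0.377). Ciita was at 0.715 and 1.39 CPM in KI and 1.02, 0.677, 0.199, 0.217 and 0.492 CPM in WT livers. KI 1 lay within the WT range, on 23 reads, and the log2 fold change of 0.99 had an interval from -0.37 to 2.36 (adjusted p = 0.432).

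With 1 KI mouse left out, KI 1 or KI 2, the fit had 1 KI library, which was assumed to vary like the WT livers. In those fits 0 of the 7 members were called, and the adjusted p of the 4 genes lay between 0.152 and 0.433, while their log2 fold changes stayed between 0.52 and 0.96. Fitted with all 21 libraries, only H2-Eb1 was called.

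**Figure D3:**
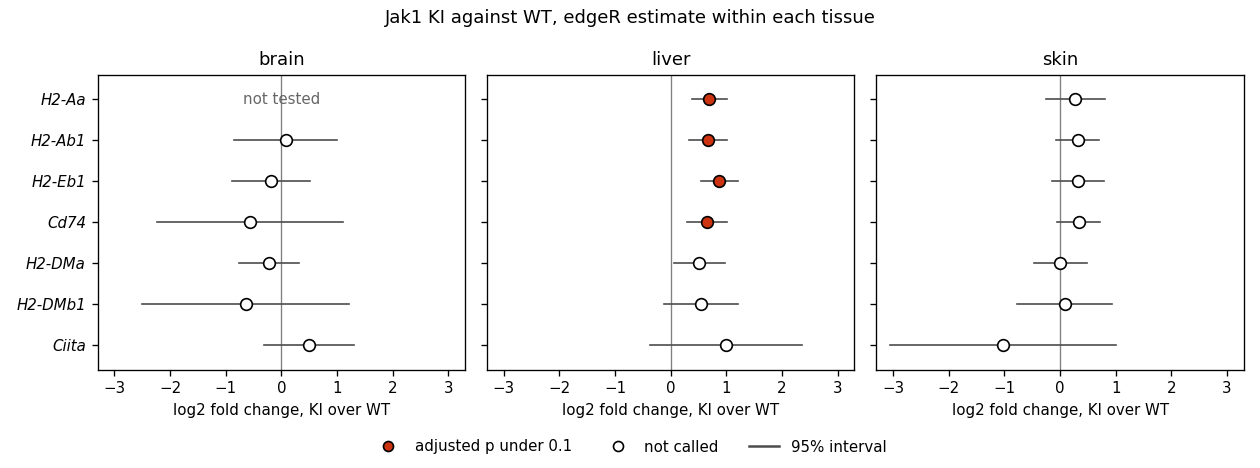
Log2 fold change of Jak1 KI over WT for the 7 members in brain, liver and skin, with 95% intervals from edgeR and filled points where the adjusted p was under 0.1. Filled points occur only in the liver, for H2-Aa, H2-Ab1, H2-Eb1 and Cd74, and H2-Aa could not be tested in the brain.

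Other genes of the class II pathway in the liver were described from lists of their roles, read against the same 3.89% called higher. Among the other chains and editors, 0 of the 3 tested were called. H2-Ob, the beta chain of H2-O, which restrains H2-DM in B cells, was the most abundant of them in WT liver at 0.927 ± 0.176 CPM per kilobase, and its KI libraries held 4.85 and 5.06 CPM against 2.16 to 3.64 CPM in WT (log2 fold change 0.72, adjusted p = 0.120). H2-Oa and H2-DMb2 had log2 fold changes of 0.77 and 0.54.

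Of 10 genes of antigen processing and class II traffic, 3 were called higher and 1 lower. Ctss, the protease that trims the invariant chain in antigen-presenting cells, was at 193 and 211 CPM in the KI livers and 96.5 to 123 CPM in the WT livers, 1.80-fold higher (adjusted p = 0.0101). Lgmn, an asparagine-specific lysosomal protease, was 1.62-fold higher (adjusted p = 0.0456), and Ifi30, a thiol reductase that unfolds antigens, 1.43-fold higher (adjusted p = 0.0854). March8, a ubiquitin ligase of the family that sends class II molecules to degradation, was lower with a log2 fold change of -0.37 (adjusted p = 0.0971). Ctsl had the highest level of the list in WT liver, 444 ± 103 CPM per kilobase, and March1 the lowest, 1.38 ± 0.162. Their log2 fold changes were 0.12 and 0.41, and neither was called.

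The factors of the class II promoter moved in part. Of 11, 2 were called higher: Spi1, which encodes the myeloid and B cell factor PU.1 (log2 fold change 0.59, adjusted p = 0.0461), and Irf8, its partner in antigen-presenting cells (log2 fold change 0.56, adjusted p = 0.0642). The X and Y box subunits Rfx5, Rfxap, Rfxank, Nfya, Nfyb and Nfyc had log2 fold changes between -0.19 and 0.08 and 0 of the 6 were called. Nfyb had the highest level of the list in WT liver (10.4 ± 1.05 CPM per kilobase) and Rfx5 the lowest (2.01 ± 0.218).

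On the path from interferon gamma to Ciita, 1 of the 9 genes tested was called, the receptor chain Ifngr2 (log2 fold change 0.38, adjusted p = 0.0403). Of the 9, 8 were estimated above 0, with a median log2 fold change of 0.31 against -0.02 over all genes. The summed list, Jak1 included, was 594 to 676 CPM in KI and 465 to 554 CPM in WT livers. In the brain the KI sums of this list, 547 and 552 CPM, lay just above the WT sums of 502 to 546 CPM. In the skin they were 688 and 754 CPM, against 556 to 652 CPM in WT. Among single genes, both KI libraries lay above all WT libraries for 13.8% in the liver, 13.0% in the brain and 3.98% in the skin. Jak1 itself had a log2 fold change of 0.30 (adjusted p = 0.125), Irf1 one of -0.08 (adjusted p = 0.906) and Socs1 one of 0.72 (adjusted p = 0.195). Ifng was too low to be tested, at 0.0413 ± 0.0409 CPM per kilobase in WT liver, while Ifngr1 was the most abundant at 30.1 ± 4.39. Of the genes of T cell contact and co-stimulation, 0 of 7 tested were called, and Cd86, a ligand of CD28, had a log2 fold change of 0.48 (adjusted p = 0.167). Cd274 was the most abundant of that list in WT liver (7.05 ± 1.15 CPM per kilobase) and Pdcd1lg2 the least (0.0519 ± 0.0449). In brain and skin, 0 genes of each of these lists were called.

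**Figure D4:**
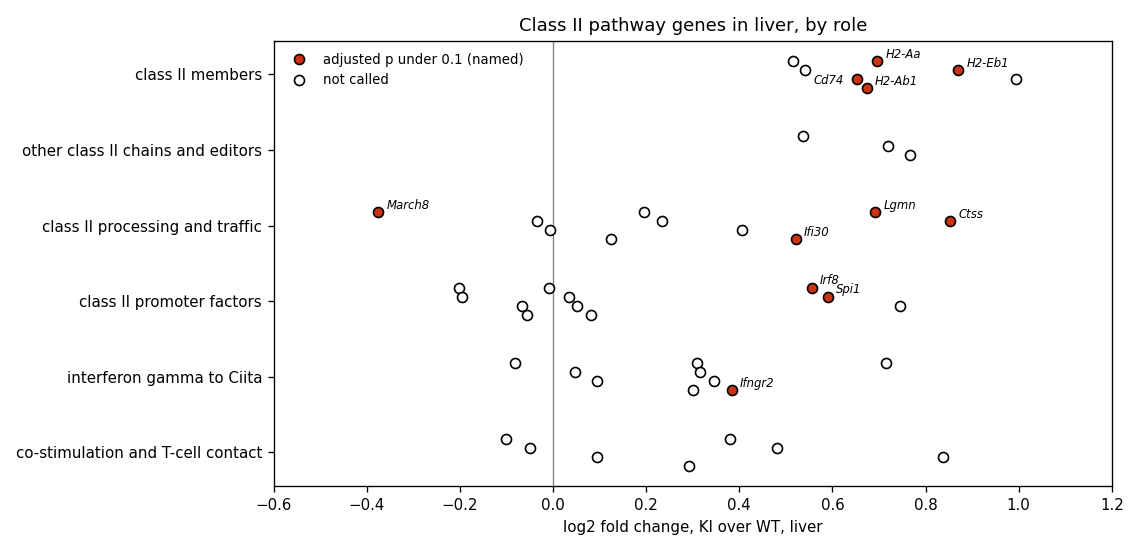
Log2 fold change of Jak1 KI over WT in the liver for each tested gene of 6 lists of the class II pathway, with filled and named points where the adjusted p was under 0.1. The members lie between 0.52 and 0.99, the promoter factors spread around 0 apart from Irf8, Spi1 and Irf4, and March8 is the called gene below 0.

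Some macrophage and B cell markers were called higher in the KI liver as well. Counts of markers were read against the 3.89% of all genes called higher and 1.68% called lower there. Both KI libraries lay above all WT libraries for 13.8% of all genes. No dendritic cell marker was called, though 8 of the 9 tested were estimated above 0. In bulk tissue, more or fewer cells of a type and more or less RNA per cell cannot be told apart. Of 13 macrophage markers, 5 were called higher (Csf1r, Adgre1, C1qa, C1qb and Cd68, with log2 fold changes of 0.49 to 0.58), Cd163 and Lyve1 had log2 fold changes of -0.65 and were not called, and the summed level of the list was 1478 to 1755 CPM in the KI livers against 1034 to 1386 CPM in the WT livers. Of 10 B cell markers, 4 were called higher, among them Cd22 (1.48-fold), Cd79a (1.54-fold) and Cd79b (1.60-fold), with summed levels of 163 to 176 CPM in KI and 99.9 to 141 CPM in WT livers. The dendritic cell list had 0 of 9 tested genes called and overlapping sums of 20.05 to 24.04 CPM in KI and 14.8 to 26.1 CPM in WT livers. Its median log2 fold change was 0.48, against 0.27 for the macrophage list and 0.57 for the B cell list. The calls therefore do not set the dendritic cell list apart from the other 2. No marker of these 3 lists was at 0 in either liver group.

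Some markers of other blood lineages were called too, read against the same shares of all genes (3.89% called higher and 1.68% lower). The neutrophil list had 4 of 8 tested genes called higher (Csf3r, Retnlg, S100a8 and S100a9), with sums of 5425 to 6604 CPM in KI and 3273 to 4315 CPM in WT livers, the mast cell list 3 of 6 (Cpa3, Hdc and Ms4a2; Tpsb2, Cma1 and Kit had log2 fold changes of -1.89, -0.86 and -0.17 and were not called), and the T and innate lymphoid list 2 of 8 (Il7r and Klrb1c). The erythroid list had 1 of 5 tested called lower (Slc4a1), with sums of 2507 to 2566 CPM in KI and 2811 to 4209 CPM in WT livers, and its globin genes Hba-a1 and Hbb-b1 had at most 2 reads in any library, WT livers included. Of the other lists, 0 of 7 liver, 0 of 8 microglia, 0 of 5 endothelial and 0 of 4 skin markers tested were called, and of 5 brain markers Tubb3 was called higher and Stmn2 lower. The class II sum was also set against a single marker gene, Csf1r, the receptor for macrophage colony-stimulating factor. The sum of the 3 chains and Cd74 was 0.331 and 0.405 times Csf1r in the KI livers and 0.236 to 0.381 times in the WT livers, so that 1 KI liver lay within the WT range and 1 above it. The part of each cell type in the class II result was not tested.

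**Figure D5:**
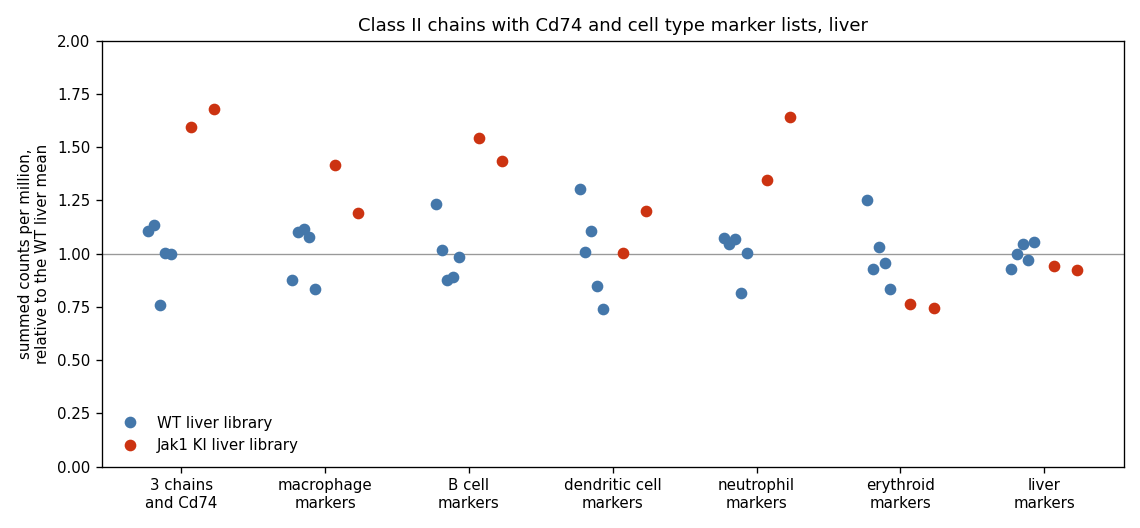
Summed CPM of the 3 class II chains with Cd74 and of 6 marker lists in each liver library, relative to the mean of the WT livers. Both KI livers lie above all WT livers for the class II sum and for the macrophage, B cell and neutrophil lists, below them for the erythroid list, and overlap them for the dendritic cell and liver lists.

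In the skin, 0 of the 7 members were called, 0 had an unadjusted p under 0.05 in edgeR (4.57% of all genes had one) and 0 were called by DESeq2. Of all 16163 genes tested, 0.0247% were called there. The estimates of the chains and Cd74 were small and above 0. Cd74 was at 50.9 and 49.8 CPM in KI and 48.2, 33.8, 35.7, 40.2 and 45.4 CPM in WT skin, 1.26-fold (interval 0.962 to 1.65, adjusted p = 0.999). H2-Ab1 was at 26.7 and 26.0 CPM in KI and 18.1 to 25.7 CPM in WT skin, with a log2 fold change of 0.32 and a fold interval of 0.955 to 1.62. For these both KI libraries lay above all WT libraries, as in 2 of the 7 members and 3.98% of all genes. H2-Aa (22.4 and 20.6 CPM in KI, 13.5 to 23.0 CPM in WT) and H2-Eb1 (21.1 and 16.0 CPM in KI, 13.0 to 18.2 CPM in WT) overlapped between groups. H2-DMa and H2-DMb1 had log2 fold changes of 0.01 and 0.08. Ciita was at 0.529 and 0.310 CPM in KI skin, within the WT range, with a log2 fold change of -1.03 and an interval from -3.06 to 1.01. The summed macrophage markers were 1174 to 1458 CPM in KI and 828 to 1072 CPM in WT skin, with 0 of 11 tested genes called.

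In the brain, 6 members could be tested and 0 were called, among 16322 genes of which 0 (0.0%) were called, although 10.6% of all genes had an unadjusted p under 0.05. None of the 6 had an unadjusted p under 0.05 in edgeR, and DESeq2, which gave an adjusted p for 2 of them (H2-Eb1 and H2-DMa), called neither. Without WT 5, 0 of the members were called as well. H2-DMa, with at least 378 reads in each brain, was at 13.1 and 11.98 CPM in KI and 11.8 to 17.9 CPM in WT brains (log2 fold change -0.22, interval -0.76 to 0.32). H2-Eb1 was at 1.88 and 2.32 CPM in KI and 1.72 to 3.07 CPM in WT brains (log2 fold change -0.18, interval -0.88 to 0.51). Ciita was the member for which both KI libraries lay above all WT libraries, at 1.18 and 0.775 CPM against 0.582 to 0.768 CPM. That pattern was found in 13.0% of all genes, and the log2 fold change of 0.49 had an interval that included 0. H2-Aa was too low for the fit, at 0.393 and 0.238 CPM in KI and 0.0377 to 0.268 CPM in WT brains (exact permutation test, two-sided, p = 0.190, where the smallest p that the 21 splits allow is 0.0476). For Cd74 and H2-DMb1, with 2 to 44 reads per brain, the intervals ran from -2.24 to 1.12 and from -2.50 to 1.22, which include changes of the size seen in the liver.

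The KI effect itself was compared between tissues with all 21 libraries. None of the 7 members was called for brain minus liver, brain minus skin or liver minus skin, where 2.81%, 0.0% and 0.0997% of the 18062 genes were called. For brain minus liver, 1 member, H2-Eb1, passed an unadjusted p of 0.05 (difference of log2 fold changes -0.95, SE 0.323, adjusted p = 0.155) and was called by DESeq2 (adjusted p = 0.0524). For brain minus skin and liver minus skin, 0 of the 7 passed an unadjusted p of 0.05. For liver minus skin the difference was above 0 for all 7, from 0.28 for Cd74 to 1.99 for Ciita, with intervals that included 0, and edgeR and DESeq2 called 0 of them. The KI effect in the liver was not shown to differ from that in the skin.

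In the skin, and for most pairs in the liver, the chains and Cd74 also varied together among mice of 1 group. After the mean of each tissue and genotype was taken out, the 6 pairs among H2-Aa, H2-Ab1, H2-Eb1 and Cd74 had Pearson correlations of 0.81 to 0.95 over the 7 skin libraries and 0.34 to 0.94 over the 7 liver libraries. The lowest of the liver pairs was H2-Eb1 with Cd74. In the brain, on few reads, the pairs ranged from -0.77 to 0.41, and over all 21 libraries from -0.04 to 0.55. These are descriptions of 7 or 21 libraries, in which genes share depth and scaling within each library. Among 15731 other genes with a mean of at least 1 CPM, those whose log2 CPM was most like the mean of the same 4 genes over the 21 libraries were B4galt1, Arpc1b, Myd88, Ripk3, Mapkapk3, Runx1, Xdh, Litaf, Stat6 and Csf2rb, all with r from 0.990 to 0.992. Those r values include the differences between tissues, in which the 4 genes were lowest in the brain. With group means taken out, the closest were Irx1 (r = 0.80), Sema3b, Plekhg3, 5930412G12Rik, Bcas3, Trdn, Was, Cdnf, Col1a1 and Hspb8 (r = 0.70). These are the highest of 15731 correlations and were not tested, and the brain libraries, with few reads of the 4 genes, enter them.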

How the data were processed

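The count tables as deposited by the authors hold whole, unnormalized read counts for 21 libraries. According to the study's methods and the labels, TruSeq libraries were sequenced paired-end, trimmed, aligned to mm9 with TopHat2 and counted with HTSeq, while the annotation, counting mode and strand setting are not given in the sources used here. The 5 summary lines of reads not assigned to a gene were left out (reads without a feature came to 7.82% to 14.6%). After filterByExpr and TMM scaling, edgeR 4.0.16 (R 4.3.3, limma 3.58.1) gave quasi-likelihood tests, Benjamini-Hochberg adjusted over all genes tested, with calls at 0.1. KI was set against WT within each tissue, tissues were compared over the 15 WT libraries, and KI effects were compared between tissues over all 21. Alternatives were DESeq2 1.42.0, its size factors, library totals (chosen after seeing the data), no low-count filter, 1 fit of all libraries, a level of 0.05, the replicate number as a block and each replicate left out (with 1 KI mouse left out, the other is assumed to vary like the WT mice). The fits were checked on simulated counts. The members and gene lists were chosen with earlier results of these data known. By rule the text names the 7 members, list genes that were called, the highest and lowest of each related list in the WT liver, and the 10 genes most like the members. Brd2, Irf1, Irf4, Jak1, Socs1, Cd86, H2-Oa, H2-DMb2 and the X and Y box factors were named in addition, after their values were seen. Lengths are merged exons of GENCODE genes in NCBIM37. Summaries ran on Python 3.11.15 (pandas 2.3.3, numpy 2.4.6) and the plots on matplotlib 3.10.9.

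Same-numbered KI and WT libraries showed r of either sign (between -0.10 and 0.20 across genes after group means were removed). Their numbers were therefore not taken to pair KI with WT. Tissues of the same number deviated together weakly (r between -0.01 and 0.17), with r above 0 in every pair but brain and skin of WT 2. The main fits across tissues still took all libraries as independent, so their p-values do not allow for mice shared between tissues. The replicate block, which allowed for the number, changed no count of members called across tissues.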

Additional observations from a re-analysis of the deposited data

Results flagged for a closer look

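H2-Ab1 in brain WT 3 stood apart from the other WT brains, at 1.33 CPM (42 reads) against 0.676 to 0.716 CPM in the other 4. Its gap to the next library was 0.939 of the whole range, above Dixon's critical value for a group of that size. Of 21 groups of 5 WT libraries examined, 1 was singled out in this way, and about 1 in 20 is what chance gives.

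The KI effect on H2-Ob, a chain of the H2-DM inhibitor H2-O, differed between brain and liver (difference of log2 fold changes -3.54, edgeR adjusted p = 0.0898). In the brain it was counted at 2 and 1 reads in KI and 5 to 16 reads in WT libraries, and in the liver at 156 and 175 reads in KI and 65 to 128 in WT libraries. It was not called without the low-count filter (adjusted p = 0.107), with the replicate number as a block (0.115) without KI 1 (0.483) or KI 2 (0.736), or without any WT number but 4 (0.101 to 0.161), and it was called by DESeq2 (0.0244).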

How the results depend on the processing

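The liver count of 4 members called was 1 in a fit of all 21 libraries (H2-Eb1), 2 at an adjusted p under 0.05 (H2-Aa and H2-Eb1), 3 with the replicate number as a block (without Cd74, adjusted p = 0.102), and 0 to 4 when 1 replicate was left out, the 0 coming from the fits with 1 KI library, in which the spread comes from the WT livers alone. It was 4 with DESeq2, with its size factors, without the low-count filter and with library totals. The WT liver against WT skin count of 1 became 5 with library totals, 0 at an adjusted p under 0.05 and 0 to 1 with 1 WT replicate left out. For the KI effect in brain minus liver, DESeq2 called 1 (H2-Eb1) where edgeR called 0. The block changed no other count of members called. For KI against WT within a tissue, the block sets KI 1 against WT 1 and KI 2 against WT 2, which are different mice. WT 3, WT 4 and WT 5 then do not enter the KI estimate. The block counts within a tissue, of members and of all genes, therefore rest on fewer libraries than the main fit.

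Some estimates near 0 changed sign, and the cause was not tested. H2-DMa in KI against WT skin, 0.00677, was -0.0126 with the replicate block and -0.0252 with library totals. In WT liver against WT skin, H2-Aa, -0.00194, was 0.0117 with DESeq2, 0.0111 with its size factors and 0.00126 with the replicate block, Ciita was 0.0698 with the block, and library totals gave -0.67 for H2-Ab1, -0.49 for H2-DMa and -0.38 for H2-DMb1. Ciita in WT brain against WT liver was 0.37 with library totals. With 1 replicate left out, signs changed within these ranges of log2 fold change: KI against WT, brain Cd74 -1.52 to 0.0156, skin H2-DMa -0.19 to 0.22 and skin H2-DMb1 -0.0143 to 0.26; WT brain against skin, Ciita -0.64 to 0.13; WT liver against skin, H2-Aa -0.16 to 0.0981, H2-Ab1 -0.0730 to 0.0953 and Ciita -0.35 to 0.21; brain minus liver, H2-Aa -0.16 to 0.64 and Ciita -1.16 to 0.42; brain minus skin, H2-Ab1 -0.31 to 0.11 and H2-DMa -0.42 to 0.12.

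Counts over all genes moved more. In the brain, 0 genes became 604 with DESeq2, 614 in the fit of all libraries, 2165 with the block and 1698 without WT 5. In the liver, 833 became 1489 with DESeq2, 242 in the fit of all libraries, 383 at an adjusted p under 0.05 and 56 to 1290 with 1 replicate left out. In the skin, 4 became 107 with DESeq2, 23 in the fit of all libraries, 0 with the block, with library totals or at an adjusted p under 0.05, and 0 to 1 with 1 replicate left out. Of the 28 other list genes called in the liver, 4 were called in the fit of all libraries, 16 with the block, 13 at an adjusted p under 0.05, and, in fits with 1 KI library, 8 without KI 1 and 1 without KI 2, and 0 changed sign under any setting. In the brain, H2-Aa, H2-DMb1 and Cd74 rested on 1 to 44 reads per library.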
